A study of Mus musculus with 3 samples.

Results

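The transcripts examined here were those of 9 genes that mark the epithelium of the colon: *Cdx1*, *Cdx2*, *Hnf4a*, *Vil1*, *Cdh17*, *Gpa33*, *Lgals4*, *Muc2* and *Tff3*. They were read in the murine colon adenocarcinoma line Colon26, its high-metastatic subline LuM1 and its low-metastatic subline NM11, all of female BALB/c origin. Each line was grown for 3 days in RPMI1640 medium holding serum and antibiotics, and 0.1 µg of total RNA per line was labelled with Cy3 and hybridized to 1 array. The genes were taken by name, and their probes by the RefSeq accession written for each spot, which gave 13 probes for the 9 genes among 22907 named genes in all. Of these genes, 5 were read by 1 probe and 4 by 2 probes, and each probe was printed as 1 spot. A subline is a selected population that was cultured apart from its parent, so a difference between lines and a difference between cultures or arrays cannot be told apart.

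The identity of the intestinal epithelium is set by a small group of transcription factors. The caudal-type homeobox factors CDX1 and CDX2 specify intestinal fate and keep it in the adult gut, and the nuclear receptor HNF4A acts with them on genes of absorptive cells. Genes that mark the differentiated epithelium include those of villin, the actin-bundling protein of microvilli encoded by *Vil1*, and cadherin-17, an adhesion protein of the intestine. Others are the A33 antigen, a surface glycoprotein encoded by *Gpa33*, and galectin-4, a sugar-binding protein of the gut encoded by *Lgals4*. Goblet cells add MUC2, the gel-forming mucin of the colon, and the trefoil peptide TFF3, which is secreted with it.

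The expression levels below are scaled signals. The brightness of each spot, from which the scanner software had subtracted the background, was scaled so that the 75th percentile of every array became 400.8. The software also marks whether a spot is well above background, and a gene counted as measured in a line when at least 1 of its probes carried this mark. The ratios of a gene with several probes are those of its brightest probe unless another is named. On the Colon26 array no probe with a signal under 26.4 carried the mark, and on the LuM1 and NM11 arrays none under 19.9. Where a probe was measured in only 1 of a pair of lines, its ratio is a bound, taken against the higher of this lowest signal and the dim signal itself. Each ± gives the error that the scanner software assigned to the spot, about 10% of a bright signal, which holds no variation between cultures. Because every line was read on a single array, differences have no replicate check and were not tested, and the few arrays limit the precision. Signals were compared between lines within a probe and not between probes, and the summed signals of marker lists, given further on, are set by their brightest probes.

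The promoters of the 3 genes that turned out to be measured are shown because *Cdx2* and *Lgals4* were lower in both sublines than in Colon26 cells while *Gpa33* was below both other lines in LuM1 cells. The bases are the 250 before the start site in RefSeq (GRCm38.p6), written 5′ to 3′ on the strand of the gene, with each CG in capitals. The intervals are chr5:147307250-147307499 on the minus strand for *Cdx2*, chr7:28833544-28833793 on the plus strand for *Lgals4* and chr1:166129971-166130220 on the plus strand for *Gpa33*.
Cdx2: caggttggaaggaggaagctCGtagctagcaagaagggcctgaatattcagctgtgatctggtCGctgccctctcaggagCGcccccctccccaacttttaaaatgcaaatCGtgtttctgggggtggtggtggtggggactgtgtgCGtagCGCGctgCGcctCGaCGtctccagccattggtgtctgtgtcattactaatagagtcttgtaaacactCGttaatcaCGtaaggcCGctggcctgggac
Lgals4: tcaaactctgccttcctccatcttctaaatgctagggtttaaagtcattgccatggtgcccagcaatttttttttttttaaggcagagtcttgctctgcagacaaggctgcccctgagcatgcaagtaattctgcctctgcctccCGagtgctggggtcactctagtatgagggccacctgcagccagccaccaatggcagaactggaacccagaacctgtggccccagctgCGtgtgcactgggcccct
Gpa33: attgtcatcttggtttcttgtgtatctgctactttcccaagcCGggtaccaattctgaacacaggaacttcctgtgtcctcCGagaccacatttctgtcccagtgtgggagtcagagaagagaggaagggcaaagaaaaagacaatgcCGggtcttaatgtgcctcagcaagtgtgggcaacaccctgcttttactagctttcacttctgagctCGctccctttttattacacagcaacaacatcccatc

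These promoters differed in their CG content. The *Cdx2* stretch held 13 CG, and 70.6% of the 32851 promoters in the table held as many or fewer, with a median of 6. The *Lgals4* stretch held 2 CG, and the *Gpa33* stretch held 4. Promoters of *Vil1*, *Muc2* and *Hnf4a*, the last with 2 start sites, were also in the table and held 3 to 5 CG. The 7 promoters of these 6 genes were searched on both strands for TTTATG and TTTATTG, written here for caudal-type factors, and for CAAAGTCC, written for HNF4-type factors. None of the 7 stretches held any of these letters, which among all promoters were present in 10.8%, 4.20% and 1.20%. Only these exact letters were searched. Variant forms of such sites, for example the tttttattac in the *Gpa33* stretch, were not counted, so the search does not show that sites were absent. Binding and DNA methylation were not measured.

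Of the 9 genes, *Cdx2*, *Lgals4* and *Gpa33* were measured in Colon26, LuM1 and NM11 cells, and the other 6 were measured in none of the lines. Thus 3 of 9 genes were measured in each line, where 57.0% of all named genes were measured in Colon26, 60.0% in LuM1 and 59.2% in NM11 cells. The 6 genes that were not measured were *Cdx1*, *Hnf4a*, *Vil1*, *Cdh17*, *Muc2* and *Tff3*, read by 8 probes.

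**Figure D1:**
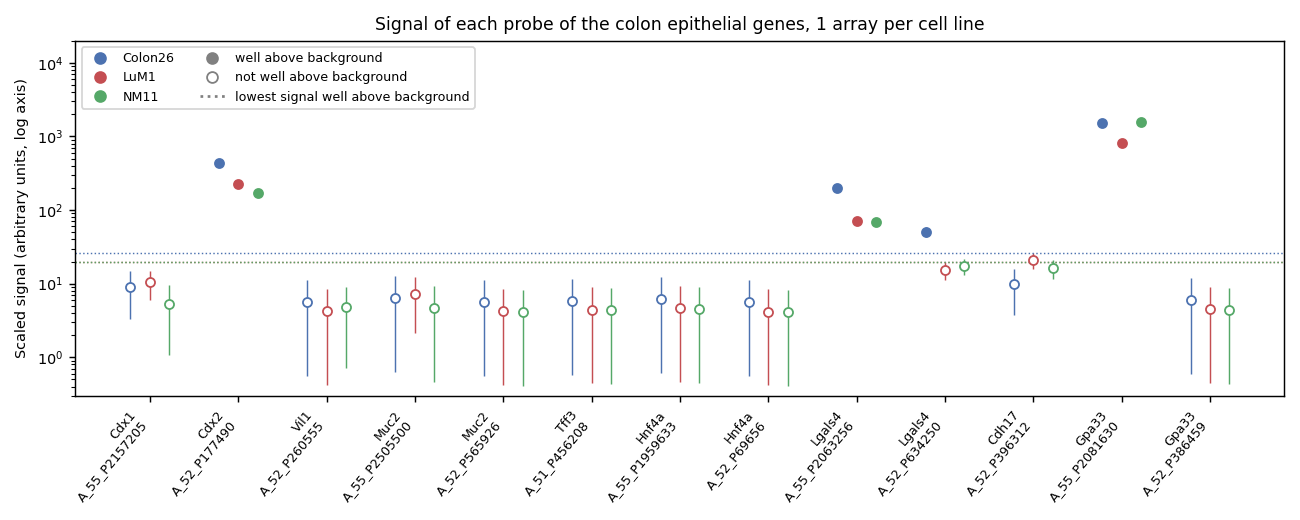
Scaled signal (log axis) of the 13 probes of the 9 genes in Colon26, LuM1 and NM11 cells, 1 array each; bars are the scanner error and the lower ones are shortened where they would reach 0. Filled points are well above background and open points are not. *Cdx2*, *Gpa33* and the brighter probe of *Lgals4* were filled in every line, and the dimmer probe of *Lgals4* was filled in Colon26 cells alone, at 50.9.

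Among the transcription factors, *Cdx2* was read by 1 probe (A_52_P177490, RefSeq NM_007673). Its scaled signal was 443 ± 44.7 in Colon26 cells, 229 ± 23.3 in LuM1 cells and 170 ± 17.6 in NM11 cells. The level was thus highest in the parental line and lowest in NM11 cells. LuM1 cells lay 1.94-fold below Colon26 cells, which is a log2 ratio of -0.95 (scanner error 0.21). NM11 cells lay 2.60-fold below the parental line, which is a log2 ratio of -1.38 (scanner error 0.21). LuM1 cells held 1.34-fold more signal than NM11 cells, and this log2 ratio of 0.43 also exceeded its scanner error of 0.21. Scaling to *Hprt* widened this last difference to a log2 ratio of 1.06, and the authors' processed values narrowed that of LuM1 over Colon26 to -0.49.

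The related factor *Cdx1* (A_55_P2157205, NM_009880) was not well above background on any array. Its signals of 9.00 ± 5.65 in Colon26, 10.4 ± 4.38 in LuM1 and 5.30 ± 4.22 in NM11 cells were significantly above background but lay at 0.341, 0.523 and 0.266 times the lowest signal marked as well above background. *Hnf4a* was read by 2 probes, and neither was significantly above background in any line. The brighter one had signals of 6.14 ± 6.15 in Colon26, 4.66 ± 4.67 in LuM1 and 4.51 ± 4.52 in NM11 cells, and the other had 5.63, 4.18 and 4.10. For such a spot the software writes about its error in place of a signal, so the values give no level.

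*Lgals4* was read by 2 probes, of which the brighter was measured in every line. This probe (A_55_P2063256, NM_010706) had a signal of 198 ± 20.6 in Colon26 cells, 70.8 ± 8.31 in LuM1 cells and 69.5 ± 8.14 in NM11 cells. The parental line therefore stood above both sublines, and the sublines lay close together. LuM1 cells lay 2.80-fold below Colon26 cells (log2 ratio -1.48, scanner error 0.23). NM11 cells lay 2.85-fold below Colon26 cells (log2 ratio -1.51, scanner error 0.23). The log2 ratio of LuM1 over NM11 was 0.03, within the scanner error of 0.24. After normexp background correction the log2 ratios over Colon26 were -0.96 for LuM1 and -0.95 for NM11 cells, so that neither reached 2-fold. That setting adds an offset of 50 to every signal, which by itself shrinks the ratios of dim probes. The drop below 2-fold therefore does not measure a smaller difference. The ratio of LuM1 over NM11 lay between -0.20 (quantile normalization) and 0.66 (scaled to *Hprt*).

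The dimmer probe of *Lgals4* (A_52_P634250) had a signal of 50.9 ± 7.42 in Colon26 cells, where it was well above background. Its signals of 15.5 ± 4.35 in LuM1 cells and 17.5 ± 4.38 in NM11 cells did not carry this mark. The level it read was at least 2.56-fold lower in LuM1 and at least 2.55-fold lower in NM11 than in Colon26 cells. A probe measured in Colon26 cells alone can only give a lower ratio, so its direction was fixed by the mark and adds nothing to that of the brighter probe. Of the spots within 5 rows and columns of this spot, 0.885% were well above background on the Colon26 array alone, against 1.89% of all spots on that array.

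*Gpa33* showed another pattern. Its measured probe (A_55_P2081630, NM_021610) had a signal of 1541 ± 154 in Colon26 cells, 804 ± 80.5 in LuM1 cells and 1573 ± 157 in NM11 cells. The level in LuM1 cells was below that in both other lines, which lay together. It was 1.92-fold lower than that in Colon26 cells (log2 ratio -0.94, scanner error 0.20) and 1.96-fold lower than that in NM11 cells (log2 ratio -0.97, scanner error 0.20). Both differences shrank under other settings. The log2 ratio of LuM1 over NM11 was -0.34 when scaled to *Hprt* and -0.51 in the processed values of the authors, and that of LuM1 over Colon26 was -0.47 in those values. A mean over both probes gave -0.46 for LuM1 over NM11, but it takes in a second probe that gave no level, so it does not measure a smaller difference. Between NM11 and Colon26 cells the log2 ratio was 0.03, within the scanner error of 0.20, but scaling to *Hprt* gave -0.48 and scaling to the E1A spike-in probes gave -0.31, beyond that error. The second probe of *Gpa33* (A_52_P386459) was not significantly above background on any array, with signals of 5.94 ± 5.96, 4.49 ± 4.51 and 4.34 ± 4.36 in Colon26, LuM1 and NM11 cells. The probes of this gene therefore disagreed on whether it was measured, and its ratios rest on 1 probe. Which transcript each probe reads was not analysed here.

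*Cdh17*, the intestinal cadherin, was not well above background on any array (A_52_P396312, NM_019753). Its signals were 9.81 ± 6.07 in Colon26, 21.0 ± 4.99 in LuM1 and 16.4 ± 4.65 in NM11 cells, and all were significantly above background. The LuM1 signal was 1.06 times the lowest signal marked as well above background on that array. It was thus the member closest to the limit of measurement. When signals significantly above background were accepted, *Cdh17* was the only 1 of the 9 genes for which LuM1 exceeded Colon26 cells by 2-fold. The Colon26 signal in that ratio, 9.81 ± 6.07, was not far above its own error, so the size of the difference is uncertain.

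The probes of *Vil1*, *Muc2* and *Tff3* lay at the background of every array. *Vil1* had signals of 5.56 ± 5.58 in Colon26, 4.21 ± 4.22 in LuM1 and 4.84 ± 4.14 in NM11 cells. *Tff3* had signals of 5.81 ± 5.85, 4.44 ± 4.45 and 4.32 ± 4.34 in the same order. The brighter of the 2 *Muc2* probes had signals of 6.41 ± 6.43, 7.24 ± 5.12 and 4.68 ± 4.70, and the other had 5.61, 4.25 and 4.13. Among the spots of these 3 genes, those of *Vil1* in NM11 cells and of the brighter *Muc2* probe in LuM1 cells were significantly above background. None was well above it, so the goblet cell products and villin gave no level from which lines could be compared.

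Set against all genes, *Cdx2* and *Lgals4* lay far down the distribution of NM11 over Colon26. Of the 12466 genes measured in both lines, 2.64% had a ratio at or below that of *Cdx2* and 2.15% at or below that of *Lgals4*. For LuM1 over Colon26 these shares were 11.2% for *Cdx2*, 3.86% for *Lgals4* and 11.6% for *Gpa33*, of 12391 genes. For LuM1 over NM11 they were 80.0% for *Cdx2*, 61.4% for *Lgals4* and 8.81% for *Gpa33*, of 12845 genes. For NM11 over Colon26 the share of *Gpa33* was 52.2%. The median log2 ratio of the 3 members was -0.95 for LuM1 over Colon26, 0.03 for LuM1 over NM11 and -1.38 for NM11 over Colon26. Over all genes measured in both lines the medians were -0.15, -0.15 and 0.00165.

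At a threshold of 2-fold, with bounds counted, 1 of the 3 members with a ratio (*Lgals4*) was lower in LuM1 than in Colon26 cells and none was higher. By this rule 12.2% of all genes with a ratio were lower and 12.9% were higher. Against NM11 cells no member was past 2-fold, where 10.6% of genes were higher and 9.42% lower in LuM1 cells. In NM11 cells, 2 of 3 members (*Cdx2* and *Lgals4*) were lower than in Colon26 cells and none was higher, where 7.55% of genes were lower and 8.65% higher. With 3 genes, these counts give no share that can be set against the background closely. *Cdx2* and *Gpa33* in LuM1 over Colon26, and *Gpa33* in LuM1 over NM11, lay just under 2-fold. The comparisons share the Colon26, LuM1 or NM11 array in pairs and are not independent. Among all genes past 2-fold, 51.3% were higher in LuM1 than in Colon26 cells, and 77.7% in the authors' processed values. For NM11 over Colon26 this share was 53.4%, and 20.1% when scaled to *Hprt*. For LuM1 over NM11 it was 53.1%, and 87.8% when scaled to *Hprt*.

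**Figure D2:**
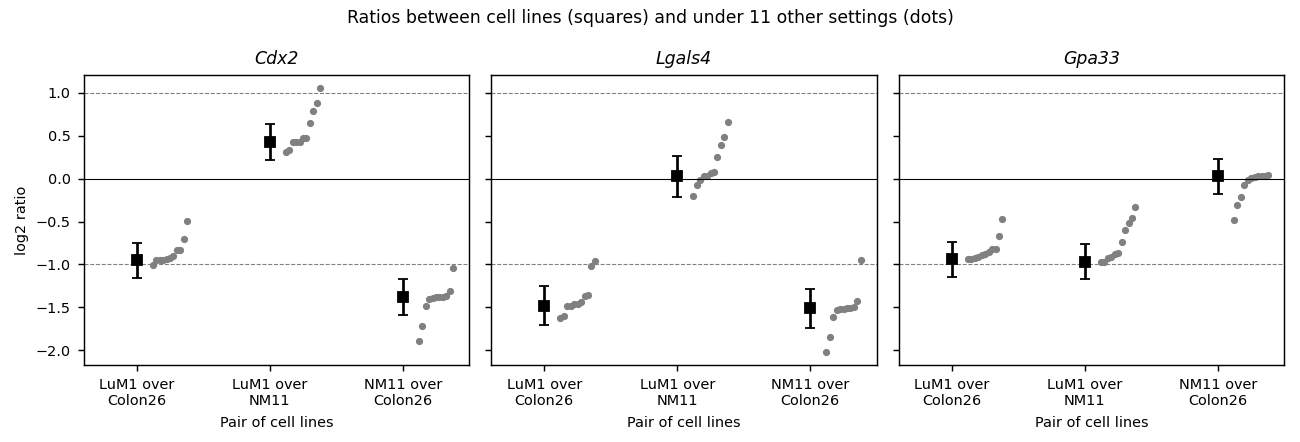
log2 ratios of *Cdx2*, *Lgals4* and *Gpa33* for each pair of lines; squares are the reported ratios with the scanner error, dots are the same ratio under 11 other settings, and dashed lines mark 2-fold. For NM11 over Colon26, *Cdx2* and *Lgals4* were below 0 in all settings, and *Gpa33* lay between -0.48 and 0.04.

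The other genes of the colon program were taken from lists of 74 genes, of which 72 had a named probe. Of these 72, 23 were measured in Colon26, 26 in LuM1 and 26 in NM11 cells, 18 in all lines and 38 in none. Among all named genes the measured shares were 57.0%, 60.0% and 59.2%. With bounds counted, LuM1 exceeded Colon26 cells by 2-fold for 7 of 30 genes with a ratio and lay as far below them for 7. These are 23.3% each, where 12.9% of all genes with a ratio were higher and 12.2% lower. Against NM11 cells 6 of 30 were higher and 5 lower in LuM1 cells, where 10.6% of all genes were higher and 9.42% lower. In NM11 cells 5 of 29 were higher and 8 lower than in Colon26 cells, where 8.65% of all genes were higher and 7.55% lower. The median log2 ratios over genes measured in both lines were -0.08, -0.34 and -0.04 in this order. With the processed values of the authors, the split of the first comparison was 10 and 6. Scaled to *Hprt*, the split was 11 and 3 for LuM1 over NM11 and 2 and 10 for NM11 over Colon26. With that scaling 25.3% of all genes were higher and 3.52% lower for LuM1 over NM11. For NM11 over Colon26 these shares were 5.06% and 20.1%, so the splits went the same way as all genes. After quantile normalization the split of LuM1 over NM11 was 6 and 7.

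**Figure D3:**
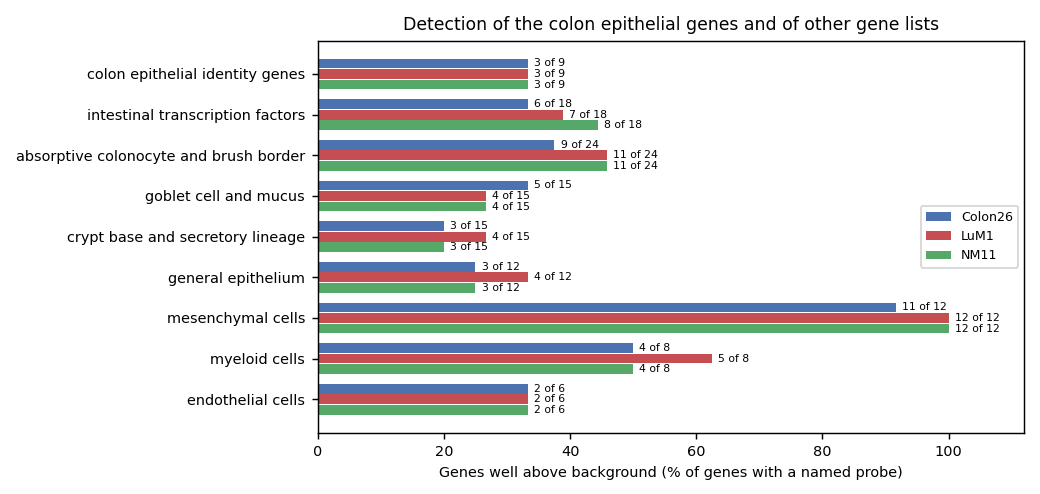
Share of genes well above background in Colon26, LuM1 and NM11 cells (bars, in % of genes with a named probe, with the counts beside them) for the 9 colon epithelial genes, the lists of other colon genes and the lists of cell type markers. The mesenchymal list was measured in 11, 12 and 12 of 12 genes and the general epithelial list in 3, 4 and 3 of 12.

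Of 18 intestinal transcription factors, 10 were measured in no line, among them the nuclear receptor *Hnf4g* and the goblet cell factor *Atoh1*. The forkhead pioneer factor *Foxa1* differed most. Its signal of 850 ± 85.2 in Colon26 cells compared with 171 ± 17.6 in NM11 cells. In LuM1 cells the signal was 4.56 ± 4.57 and was not well above background. The level was at least 42.7-fold lower in LuM1 and 4.99-fold lower in NM11 than in Colon26 cells. *Gata4*, a zinc finger factor of the small intestine, had signals of 180 ± 19.1 in Colon26, 53.9 ± 7.28 in LuM1 and 103 ± 11.3 in NM11 cells. LuM1 cells thus lay 3.35-fold and NM11 cells 1.74-fold below Colon26 cells. The other *Gata4* probe was well above background in no line, at 5.75, 4.32 and 7.44. These 2 genes and *Cdx2* were lower in both sublines than in Colon26 cells. *Sox9*, a factor of crypt progenitors, was highest in LuM1 cells, 2.79-fold above NM11 cells by its brighter probe. Its dimmer probe gave a log2 ratio of 0.53 for the same pair. The vitamin D receptor *Vdr* was not measured in Colon26 cells, at 21.4 ± 6.50. It was higher by at least 2.61-fold in LuM1 and by at least 2.03-fold in NM11 than in Colon26 cells.

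Of 24 genes of absorptive cells and the brush border, 9 were measured in Colon26, 11 in LuM1 and 11 in NM11 cells. They differed in both directions. *Krt20*, the keratin of differentiated intestinal cells, had signals of 651 ± 65.4 in Colon26, 53.9 ± 6.95 in LuM1 and 160 ± 16.6 in NM11 cells, 12.1-fold and 4.07-fold lower in the sublines than in Colon26 cells. In contrast, the water channel *Aqp8* had signals of 242 ± 25.0, 3108 ± 311 and 386 ± 38.9 in the same order. Its level in LuM1 cells was 12.8-fold above Colon26 cells and 8.04-fold above NM11 cells. *Plac8* was higher in both sublines, 14.6-fold in LuM1 and 16.6-fold in NM11 cells. The adhesion molecule *Ceacam1* and the aminopeptidase *Anpep* were lower in NM11 than in Colon26 cells, 3.26-fold and 3.90-fold, and *Ceacam1* was 2.16-fold higher in LuM1 cells. The meprin metalloproteases of the brush border, *Mep1a* and *Mep1b*, were measured in LuM1 cells alone, at least 3.95-fold and 4.78-fold higher than in Colon26 cells. The *Mep1b* spot lay where 13.8% of spots were well above background on the LuM1 array alone, against 3.49% of all spots. *Espn* was measured in NM11 cells alone and by 1 of 3 probes, in a stretch where this share was 13.0%, against 2.14%. Both shares exceeded the limit of 10% set for such spots, and both genes were kept in the 2-fold counts given above. Whether these neighbourhoods bear on *Mep1b* and *Espn* was not tested.

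Of 15 goblet cell genes with a probe, 7 were measured in no line, as *Muc2* and *Tff3* were. The membrane mucin *Muc4* was measured in Colon26 cells alone, with a signal of 431 ± 43.4 for its brightest probe against 4.03 ± 4.04 in LuM1 and 3.99 ± 4.01 in NM11 cells, at least 21.6-fold lower in each. Of its other probes, 1 was measured in Colon26 cells alone and 1 in no line. *Clca1* was likewise measured in Colon26 cells alone, at 59.9 ± 8.45, and was at least 3.01-fold lower in both sublines. No goblet cell gene reached 2-fold above Colon26 cells in a subline at the scaling used. *Galnt12*, with a log2 ratio of LuM1 over Colon26 of 0.94, passed it under 4 other settings. The ratio was 1.40 in the processed values of the authors, 1.06 with unscaled signals or with *Hprt* as the reference, and 1.035 with quantile-normalized signals. Among 15 genes of the crypt base and secretory lineages with a probe, 10 were measured in no line, among them the stem cell receptor *Lgr5*. *Ephb2*, a receptor of crypt cells, lay 8.12-fold lower in LuM1 cells than in the parental line by its brighter probe, whereas the log2 ratio of its dimmer probe was -0.80. *Reg4* was measured in Colon26 cells alone and was at least 2.28-fold lower in both sublines. *Dclk1* was not measured in Colon26 cells. It was at least 2.78-fold higher in LuM1 and at least 14.4-fold higher in NM11 than in Colon26 cells by the brightest of its 4 probes. By the next brightest the log2 ratios over Colon26 were at least 0.99 in LuM1 and at least 2.69 in NM11 cells. Of the other *Dclk1* probes, 1 was measured in NM11 cells alone and 1 in no line.

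**Figure D4:**
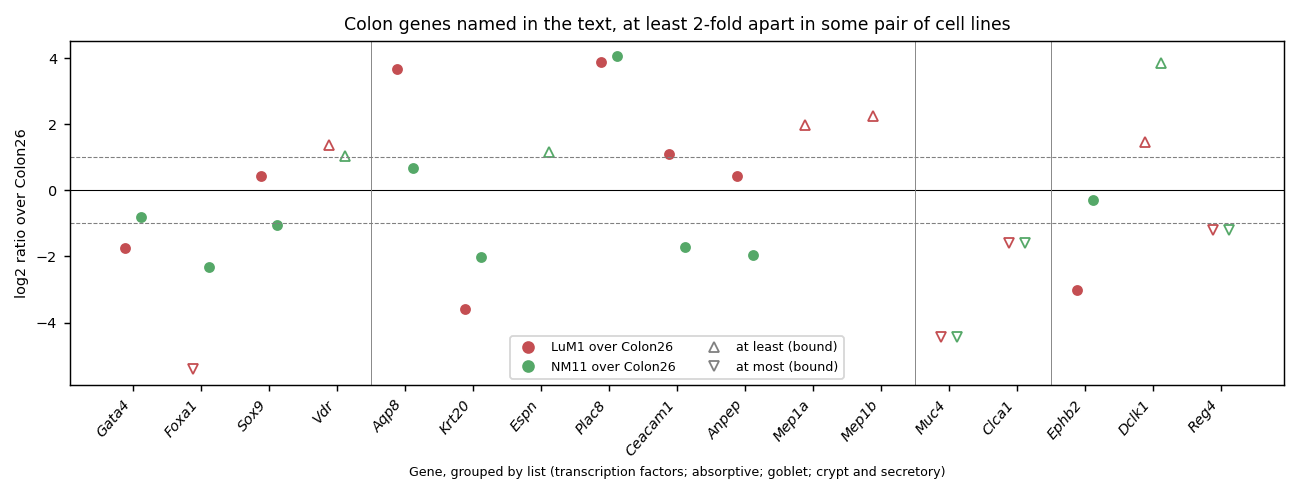
log2 ratios of LuM1 (red) and NM11 (green) over Colon26 for the other colon genes named in the text that were at least 2-fold apart in some pair of lines; filled circles are measured in both lines, open triangles are bounds, and dashed lines mark 2-fold. *Foxa1*, *Krt20*, *Muc4*, *Clca1* and *Reg4* lay below -1 in both sublines, and *Plac8*, *Vdr* and *Dclk1* lay above 1 in both. The ratios of *Muc4*, *Clca1*, *Reg4*, *Vdr* and *Dclk1*, and that of *Foxa1* in LuM1 cells, are bounds whose direction was fixed by the mark.

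The label of colon adenocarcinoma was set against markers of epithelium and of other cell types. Among all named genes, 57.0% were measured in Colon26, 60.0% in LuM1 and 59.2% in NM11 cells. Of 12 general epithelial genes, 3 were measured in Colon26, 4 in LuM1 and 3 in NM11 cells, and 8 in no line. The defining adhesion gene *Cdh1* was at background in every line, with signals of 5.91 ± 5.95 in Colon26, 4.60 ± 4.61 in LuM1 and 4.37 ± 4.39 in NM11 cells. *Epcam* was measured in LuM1 cells alone, at 27.7 ± 5.12, and *Krt8* was measured in all lines, at 28.9, 106 and 37.8, which put LuM1 cells 3.67-fold above Colon26 and 2.81-fold above NM11 cells. The defining epithelial markers were thus mostly not measured, while 11 of 12 mesenchymal genes in Colon26 cells and all 12 in both sublines were measured. The summed signal of the epithelial list was 211 in Colon26, 288 in LuM1 and 222 in NM11 cells. The summed signal of the mesenchymal list was lowest in LuM1 cells, at 338386, against 375285 in Colon26 and 436060 in NM11 cells. This order rested on *Col1a2*, a fibrillar collagen gene, with signals of 59908 in Colon26, 49.0 in LuM1 and 86816 in NM11 cells. Without it the sums were 315377 in Colon26, 338337 in LuM1 and 349244 in NM11 cells. Of 8 myeloid genes, 4 were measured in Colon26, 5 in LuM1 and 4 in NM11 cells. These counts lie near the shares of all named genes, so they mark no myeloid trait by themselves. The summed signals of this list were 5941, 12803 and 5387. In the same order *Itgam* had signals of 5028, 6736 and 4328, and *Csf1r* had 682, 682 and 687, each by its brighter probe. The dimmer *Itgam* probe had 63.4, 17.7 and 31.5 and was not well above background in LuM1 cells. The 2 *Itgam* probes thus gave different orders of the lines. The dimmer *Csf1r* probe had 258, 247 and 211. *Cd68* had signals of 172, 5188 and 305, and *Fcer1g* had 31.3, 69.1 and 37.7. *Lyz2* was measured in LuM1 cells alone, at 111. *Ptprc*, which defines leukocytes, was at background in every line, and *Adgre1* and *Tyrobp* were measured in none. Of 6 endothelial genes, 2 were measured in each line, with summed signals of 417, 15202 and 172, and *Cdh5*, *Kdr*, *Tek* and *Emcn* were measured in none. Most of the endothelial sum in LuM1 cells was *Cd93*, at 15133 ± 1513 against 342 ± 34.6 in Colon26 and 71.5 ± 8.26 in NM11 cells. The part of these lists in the levels of *Cdx2*, *Lgals4* and *Gpa33* was not tested. The RNA came from whole cultures, so fewer expressing cells and less RNA per cell cannot be told apart.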

How the data were processed

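Per the file headers and labels, total RNA of Colon26, LuM1 and NM11 cells was read on 1-colour SurePrint G3 Mouse arrays, 1 array per line, with Feature Extraction 11.5.1.1. The authors deposited intensity values for each spot, background-subtracted and detrended but not scaled between arrays, with flags of 0 or 1. They also deposited a table of processed intensity values, which equal the scanner intensity times 0.654, 0.829 and 0.706 for Colon26, LuM1 and NM11.

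Control and outlier spots (137, 74 and 99 of 59305) were left out, repeated spots of a probe were averaged, and signals were divided by the array's 75th percentile over 56605 probes. RefSeq accessions (GRCm38.p6) named 32989 probes. The brightest named probe by mean log2 signal represented a gene. Genes named from the lists were those at least 2-fold apart in some pair, or counted as measured in no line. *Epcam*, *Galnt12*, *Itgam* and *Csf1r* were named after their values were seen. The *Cdx1* promoter and protein sequences are not given here, and some listed genes are counted but not reported singly. The members, lists and rules were chosen with earlier results of these data known. Repeated spots varied by a median SD of 0.035 to 0.040 (log2). Alternatives covered scaling, normexp correction of the median brightness with an offset of 50, detection, probes and a 4-fold threshold. Python 3.11.15, numpy 2.4.6, pandas 2.3.3, scipy 1.17.1, matplotlib 3.10.9, R 4.3.3 and limma 3.58.1 were used, and the ratio code was tested on simulated data.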

Additional observations from a re-analysis of the deposited data

How the results depend on the processing

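The 9 log2 ratios of *Cdx2*, *Lgals4* and *Gpa33* were recomputed under 11 alternatives each, 99 values in all. Of these, 72 moved by less than the scanner error and 27 by more, and no ratio beyond the scanner error changed its direction. Part of the 72 could not move. These genes were measured in every line, so accepting dimmer spots returned the same ratio, as did a mean over probes for *Cdx2*, which has 1 probe. The 72 is therefore no measure of how stable the ratios are. At 2-fold, the count of members apart in LuM1 over Colon26 was 1 and became 2 after quantile normalization (*Cdx2* added), 2 without a filter on dim probes and 2 with signals significantly above background (*Cdh17* added, higher in LuM1 cells), and 0 after normexp correction or at 4-fold (*Lgals4* lost). In this comparison 11.3% of all genes were lower after quantile normalization and 8.90% after normexp correction. The *Cdh17* ratio rests on a Colon26 signal not far above its own error. For LuM1 over NM11 the count of members was 0 and became 1, higher in LuM1 cells, when scaled to *Hprt*. With that scaling 25.3% of all genes were higher. For NM11 over Colon26 the count of members was 2 and became 1 after normexp correction (*Lgals4* lost) and 0 at 4-fold. The normexp offset of 50 by itself shrinks the ratios of dim probes. The loss of *Lgals4* after this step, in either comparison with Colon26, therefore does not measure a smaller difference. With signals significantly above background, 5 members in Colon26, 6 in LuM1 and 6 in NM11 cells were measured in place of 3, and of the other colon genes 45, 41 and 46 in place of 23, 26 and 26. The other colon genes past 2-fold then numbered 26 in place of 14 for LuM1 over Colon26. They numbered 18 in place of 11 for LuM1 over NM11 and 26 in place of 13 for NM11 over Colon26. The shares of all genes under this looser rule, without a filter or at 4-fold were not taken. Those counts therefore cannot be told from a general shift.

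Relative to the 75th percentile over probes, the median log2 ratio over all genes moved by 0.46 in the authors' processed values for LuM1 over Colon26, and when scaled to *Hprt* by 0.63 for LuM1 over NM11 and by -0.51 for NM11 over Colon26. The percentile over spots moved it by at most 0.04. This alternative, the goblet cell genes under each scaling and the mesenchymal sum without *Col1a2* were added after seeing the data. The files hold no gene names, so naming by them was not run. The share of nearby spots called on an array alone was taken only for probes called on 1 array. Among the members this was the dimmer *Lgals4* probe, whose 0.885% was under the limit of 10%, so it was kept. Among the other colon genes the spots of *Mep1b* at 13.8% and *Espn* at 13.0% exceeded this limit. Both were nevertheless kept in the 2-fold counts. The other member spots were not examined in this way. No paired analysis was possible because each line had 1 array.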

Other observations

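The genes whose levels over the 3 arrays were most like those of a member were found by the distance between log2 signals centred on each gene's mean, among 12242 genes measured in all lines. For *Cdx2* the 3 nearest were *Pibf1* at a distance of 0.035, *Wdr5b* at 0.040 and *Vars2* at 0.044. *Pibf1* had scaled signals of 265 in Colon26, 140 in LuM1 and 106 in NM11 cells, the same order of the lines as *Cdx2*. For *Lgals4* the nearest were *2310039H08Rik* at 0.022, *Metrn* at 0.027 and *Gm38457* at 0.035. *Metrn* had signals of 9603, 3456 and 3307. Within a distance of 0.25, about the scanner error of a ratio, lay 63 genes for *Cdx2* and 49 for *Lgals4*, so 3 arrays separate such patterns poorly. The likeness is a description over 3 arrays of shared scaling.

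*Galnt12*, which starts the O-linked sugar chains of mucins, had signals of 861 ± 86.3 in Colon26, 1650 ± 165 in LuM1 and 938 ± 93.9 in NM11 cells. It was measured in all lines although *Muc2* was measured in none, and its log2 ratio of LuM1 over Colon26 was 0.94. This gene was singled out after its values were seen.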
